A study of Homo sapiens with 8 samples.

Results

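The 36 genes described here encode the core of the human DNA replication machinery and of the ATR branch of the replication checkpoint. They were listed by name as a pathway, with no measured value in the rule, and are the 6 subunits of the MCM2 to MCM7 helicase, 8 factors that load or activate it, 4 polymerase or primase subunits, the sliding clamp and its 5-subunit loader, 2 subunits of RPA and 10 genes of ATR signalling. All 36 matched a GENCODE gene and all 36 passed the filter on low counts, among 20720 spliced genes with at least 1 counted read and 13991 genes tested at day 4. The cells were K562, an established human erythroleukaemia line, and carried SF3B1 either as wild type (WT) or with the K700E substitution. The modified allele was switched on with doxycycline at 1 ug/ml, and total RNA was taken at day 4 or day 8, with 2 libraries in each of the 4 groups. The labels name neither a clone nor the promoter of the induced allele, and they leave unsaid whether each replicate was its own culture. The p-values thus measure the spread between these libraries alone, which may be technical.

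SF3B1 is a subunit of the U2 snRNP and helps it settle on the branch point that precedes each 3′ splice site, or acceptor. K700E, found time and again in myelodysplastic syndromes, is known for raising the use of cryptic acceptors a short way upstream of the usual ones. At a replication origin, CDC6 and CDT1 load the MCM ring, and CDC45 and the GINS complex then turn it into the active helicase ahead of the polymerases. When single-stranded DNA builds up at a slowed fork, RPA coats it and recruits the ATR kinase through its partner ATRIP. TOPBP1 and the RAD9A-containing clamp, loaded by RAD17, switch ATR on, and claspin (CLSPN), with TIMELESS and TIPIN, passes the signal to the kinase CHEK1, which slows further origin firing and, together with WEE1, holds back mitosis.

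The libraries held between 49338071 and 77750812 unique reads across splice junctions, of which the 36 genes held between 280522 and 447526. A gene's level is given as unique junction reads scaled to CPM (counts per 1000000) after TMM scaling, which evens out differences in library composition. The genotype labels were compared with 22 known cryptic acceptor targets of SF3B1 hotspot mutants. In the day 4 libraries their median cryptic acceptor use was 1.55% and 2.34% for WT and 27.8% and 25.4% for K700E. Among day 8 libraries, the WT label carried medians of 0% and 29.7% and the K700E label medians of 2.89% and 30.9%, so the day 8 labels and these targets disagree, and no library was moved. Among unannotated junctions, those with 1 read made up 4.61% and 6.21% in the libraries labelled WT at day 8 and between 27.9% and 42.0% in the other 6. The read names in the file headers begin differently in the day 4 and the day 8 libraries, so day and this difference between the libraries cannot be told apart. A label calls the cells epithelial. Of 7 epithelial markers, the keratins KRT8, KRT18 and KRT19 and the adhesion molecule EPCAM were expressed in every library, with EPCAM between 6.90 and 112 CPM, while CDH1 and CLDN4 reached at most 0.042 CPM in any library. Summed by library, the 7 epithelial markers lay between 488 and 2608 CPM and 15 erythroid markers between 1079 and 2475 CPM. Among the erythroid markers, the factor GATA1 lay between 122 and 213 CPM.

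Per intron, which is a scale that does not grow with the number of introns, PCNA and MCM7 were the most abundant of the 36 genes, with median levels of 33.8 and 33.2 CPM per intron over the 8 libraries. ATRIP was the least abundant, at 1.35 CPM per intron, followed by RAD9A at 1.87, GINS3 at 2.27 and ATR at 2.79.

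At day 4 none of the 36 genes passed the test between K700E and WT, and the largest log2 changes were those of ATR, ATRIP and TIPIN, all higher in K700E. In that comparison 74 of 13991 genes passed an adjusted p of 0.05 in edgeR's quasi-likelihood test, which is 0.529%. By unadjusted p, 6 of the 36 were higher in K700E (ATR, ATRIP, TOPBP1, PCNA, GINS1 and POLD1), which is 16.7% of them beside 10.8% of all genes, and 0 were lower, beside 10.5% of all genes. The 2 K700E libraries both lay above both WT libraries in 15 genes (41.7% beside 26.4% of all genes) and both lay below in 7 genes (19.4% beside 28.2%). The log2 change was above 0 in 24 of the 36, with a median of 0.13, and the median of all genes tested was 0.02. DESeq2 called 3 of the 36 (ATR, ATRIP and TOPBP1), beside 1640 of all 13991 genes. Without the filter on low counts, edgeR called 1 of the 36 (ATR), beside 1567 of all 19722 genes.

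**Figure D1:**
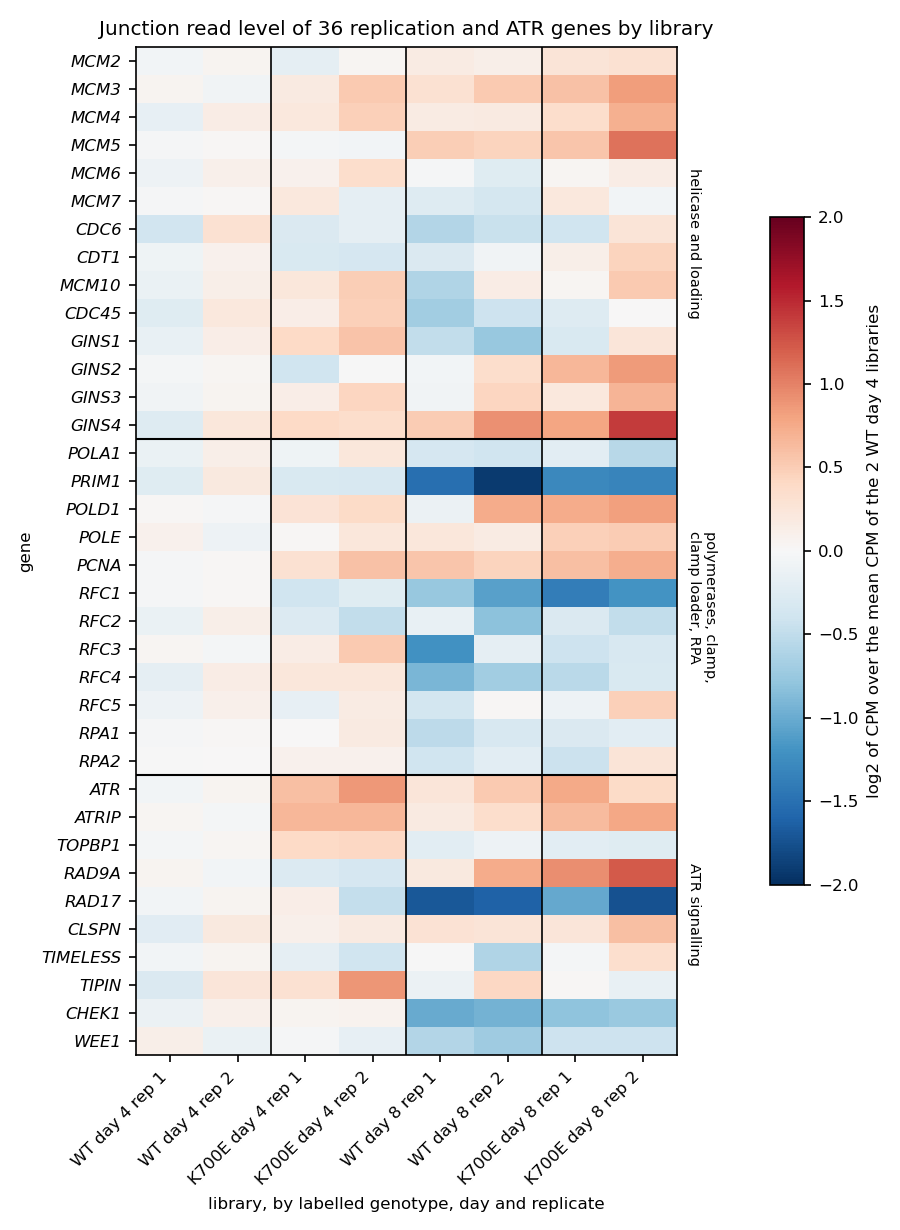
Each row is a gene, grouped by role, and each column a library; colour gives the log2 of its CPM over the mean CPM of the 2 WT day 4 libraries (red higher, blue lower). ATR, ATRIP and TOPBP1 are red in both K700E day 4 libraries, and PRIM1, RAD17, RFC1 and CHEK1 are blue in all 4 day 8 libraries.

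ATR, the kinase at the head of the pathway (ENSG00000175054.14, chromosome 3, 142449235 to 142578826, minus strand, hg38), stood at 91.8 and 99.8 CPM in WT and at 145 and 175 CPM in K700E at day 4. These values come from 4857 and 6168 reads in WT and 10534 and 10611 reads in K700E. Both K700E libraries lay above both WT libraries. The change was 1.69-fold, or 0.76 on the log2 scale (SE 0.15, unadjusted p 0.00277, adjusted p 0.0947 by edgeR), which does not pass. With 1 library left out, the log2 change of ATR lay between 0.61 and 0.89. Whether it passed turned on the library left out, and each such fit kept only 1 library in a group. In the libraries labelled WT at day 8 ATR had 114 and 137 CPM, and in those labelled K700E 162 and 125 CPM, so the day 8 groups overlapped.

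The higher level of ATR ran along the whole transcript. In 44 of the 46 introns of its principal transcript both K700E libraries lay above both WT libraries at day 4, and in 0 introns both lay below. TOPBP1 was alike, with 25 of 27 introns higher and 0 lower, as was POLD1 with 25 of 26 and MCM3 with 15 of 16. Introns of 1 gene share their RNA and are not replicates of the genotype.

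**Figure D2:**
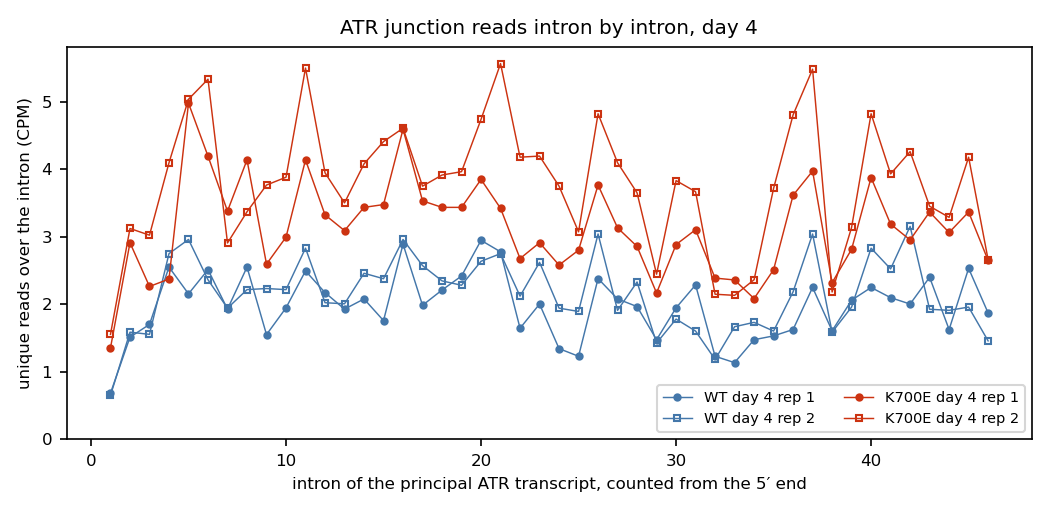
Unique junction reads (CPM) over each of the 46 introns of ATR (horizontal axis, counted from the 5′ end) in the 4 day 4 libraries, with WT in blue and K700E in red. Both K700E lines run above both WT lines at 44 introns.

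ATRIP, which ties ATR to RPA-coated DNA, had 13.3 and 12.6 CPM in WT and 20.5 and 20.6 CPM in K700E at day 4. The replicates lay close together and the groups apart, by 0.68 on the log2 scale (SE 0.18; edgeR, adjusted p 0.136). In the day 8 libraries ATRIP had 14.6 and 16.5 CPM under the WT label and 19.9 and 22.1 CPM under the K700E label, which do not overlap. It shared this with 58.3% of the 36 genes, beside 19.0% of all genes. Each labelled day 8 group held 1 library with low and 1 with high use of the known cryptic acceptors. TOPBP1, the activator of ATR, had 173 and 183 CPM in WT and 235 and 237 CPM in K700E at day 4 (log2 0.42, SE 0.12, adjusted p 0.143 by edgeR). At day 8 its 4 libraries fell between 150 and 166 CPM. The checkpoint clamp and its loader were not among the higher genes: RAD9A had 15.7 and 14.7 CPM in WT and 12.6 and 12.1 CPM in K700E at day 4, and the groups did not overlap, while RAD17 had 122 and 131 CPM in WT and 138 and 90.5 CPM in K700E, which overlap.

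Among the mediators, TIPIN had 30.2 and 43.4 CPM in WT and 45.6 and 68.0 CPM in K700E at day 4. Its log2 change of 0.64 carried the largest SE of the ATR genes, 0.27, and its adjusted p was 0.249 by edgeR. TIMELESS, with which TIPIN forms a fork-protection complex, had 169 and 182 CPM in WT and 156 and 134 CPM in K700E (log2 -0.26, SE 0.14), so the 2 partners had changes of opposite sign, neither past the test. CLSPN had 104 and 138 CPM in WT and 129 and 137 CPM in K700E, and the groups overlapped. The effector kinases had the smallest day 4 changes of the 10 ATR signalling genes, with log2 values of 0.08 for CHEK1 (SE 0.13) and -0.08 for WEE1 (SE 0.15).

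**Figure D3:**
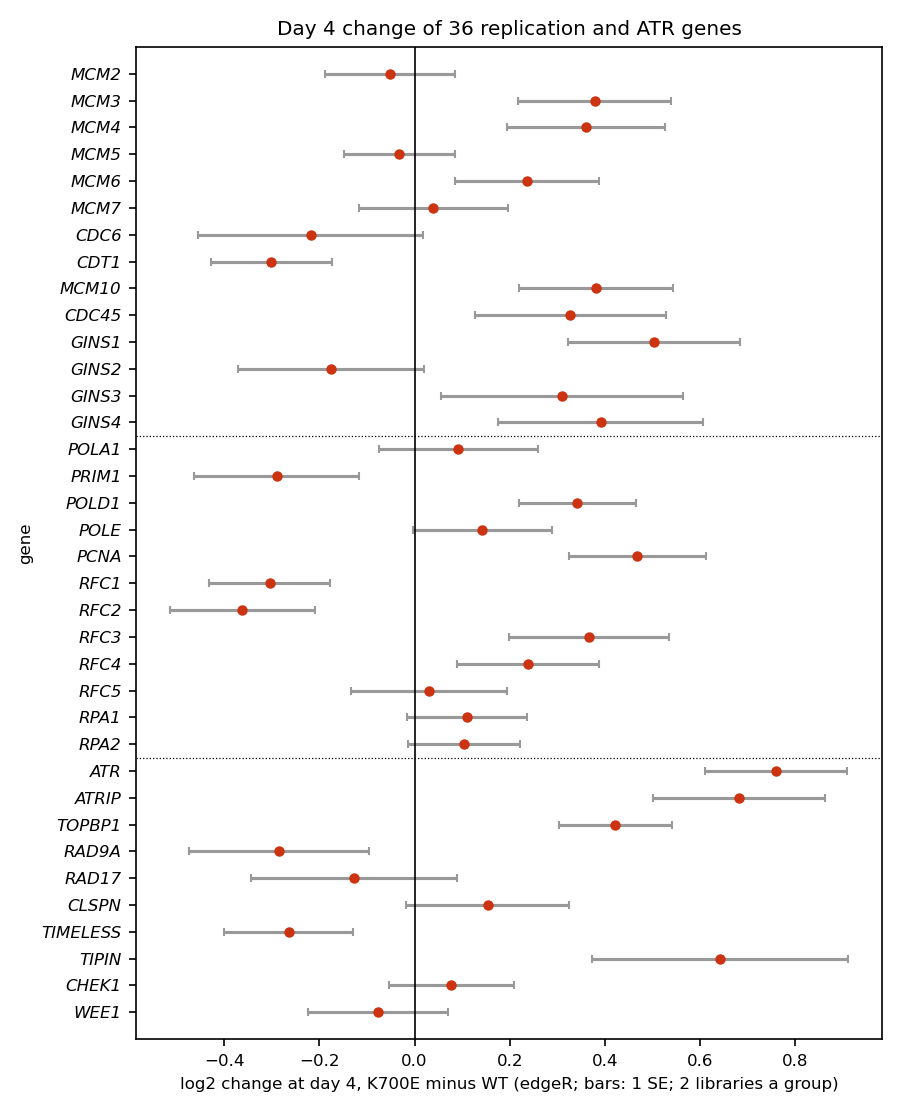
Log2 change of each of the 36 genes at day 4, K700E minus WT, with bars of 1 SE from edgeR; dotted lines part the helicase and its loading factors, the polymerase, clamp and RPA genes, and ATR signalling. ATR at 0.76, ATRIP at 0.68 and TIPIN at 0.64 lie farthest to the right, and RFC2 at -0.36 farthest to the left.

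The 6 helicase subunits had log2 changes between -0.05 and 0.38 at day 4, with 4 above 0. MCM3 had 246 and 226 CPM in WT and 267 and 340 CPM in K700E, and MCM4 had 302 and 376 CPM in WT and 390 and 469 CPM in K700E. In both genes the groups did not overlap, and both had adjusted p-values above 0.05 (0.255 and 0.286 by edgeR). MCM5 stayed within a narrow range, at 162 and 167 CPM in WT and 160 and 159 CPM in K700E. None of the 6 passed the test.

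Of the 8 loading and activation factors, 5 had a log2 change above 0. GINS1, a subunit of the GINS complex, had 22.9 and 27.9 CPM in WT and 33.5 and 37.7 CPM in K700E (log2 0.50, SE 0.18, adjusted p 0.20 by edgeR). MCM10, which helps to activate the helicase, had 98.4 and 117 CPM in WT and 126 and 152 CPM in K700E. The loading factor CDT1 lay the other way, with 141 and 159 CPM in WT and 122 and 119 CPM in K700E, with log2 -0.30 (SE 0.13). CDC6, the other loading factor, had 154 and 249 CPM in WT and 165 and 178 CPM in K700E, so the WT replicates differed from each other by more than the groups did.

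PCNA, the sliding clamp that holds polymerases on DNA, had 133 and 137 CPM in WT and 168 and 202 CPM in K700E at day 4. Its groups did not overlap, and lay 0.47 apart on the log2 scale (SE 0.14; edgeR, adjusted p 0.16). The 5 loader subunits did not lie on the same side: RFC1 and RFC2 were below, and RFC3 and RFC4 above, both WT libraries in both K700E libraries. RFC1, the large subunit, had 241 and 250 CPM in WT and 185 and 208 CPM in K700E, and RFC2 had 117 and 139 CPM in WT and 106 and 90.8 CPM in K700E. RFC4 had 188 and 236 CPM in WT and 248 and 247 CPM in K700E. Of the loader's 5 subunits none passed the test. POLD1, the catalytic subunit of polymerase delta, had 113 and 111 CPM in WT and 135 and 146 CPM in K700E (log2 0.34, SE 0.12, adjusted p 0.201 by edgeR). The primase subunit PRIM1 had 185 and 250 CPM in WT and 177 and 175 CPM in K700E (log2 -0.29, SE 0.17). RPA1 and RPA2, which bind single-stranded DNA, had log2 changes of 0.11 and 0.10.

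Other genes of the pathway gave the same count at day 4: 0 passed the test among 17 of origin licensing and firing, 17 of fork polymerases and lagging strand, 19 of checkpoint and fork protection, 10 of nucleotide supply and 13 S phase regulators. Their median log2 changes were 0.20, 0.19, 0.13, 0.17 and -0.00 in that order, beside 0.02 for all genes. The 5 with the largest changes were POLE4, a small subunit of polymerase epsilon (log2 1.03), CTPS1, which makes CTP (0.84), the fork remodellers HLTF (0.78) and ZRANB3 (0.73), and the transcription factor E2F2 (0.69). HLTF had 503 and 426 CPM in WT and 802 and 773 CPM in K700E, with an adjusted p of 0.0825 by edgeR. CTPS1 had 105 and 114 CPM in WT and 172 and 216 CPM in K700E.

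Markers of the megakaryocyte lineage moved with the genotype labels at day 4. The 7 markers summed to 12.6 and 23.9 CPM in WT and to 126 and 124 CPM in K700E, 3 of the 7 were expressed enough to be tested, and 1 passed (ITGA2B, the integrin subunit CD41, log2 2.60, adjusted p 0.0418 by edgeR). The platelet genes GP9, PF4 and VWF reached at most 0.176 CPM in any library. The 15 erythroid markers summed to 2475 and 2070 CPM in WT and to 2004 and 1079 CPM in K700E, with 0 past the test. The 7 epithelial markers summed to 868 and 987 CPM in WT and to 688 and 488 CPM in K700E. At day 8 the megakaryocyte sums were 96.1 and 79.6 CPM in the libraries labelled WT and 39.5 and 516 CPM in those labelled K700E, which overlap. The erythroid sums there were 1831 and 1139 CPM under the WT label and 1472 and 1454 CPM under the K700E label. The epithelial sums were 1019 and 1095 CPM under the WT label and 1225 and 2608 CPM under the K700E label. The part of these shifts in the levels of the replication genes was not tested.

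Acceptor choice was compared within each donor: the use of a junction is its share of all unique reads that leave the same donor, and a junction was called when its adjusted p was under 0.05 and its use moved by 5 percentage points or more. At day 4, 280 junctions of 32 of the 36 genes were testable and 2 were called, in CHEK1 and CLSPN. That is 0.714% of the member junctions, beside 0.46% of all 70418 junctions tested. By unadjusted p 22 of the 280 passed, 7.86% beside 6.97% of all, with 14 of them less used and 8 more used in K700E.

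The called CHEK1 junction joined exon 7 to exon 9 and left out exon 8 of the 14 exons of the principal transcript. Its intron runs from 125635534 to 125643791 on chromosome 11 (plus strand, hg38); both ends are annotated splice sites, and GENCODE release 29 does not pair them. The skipped exon is coding and 96 nt long, a multiple of 3, so leaving it out keeps the reading frame. Its sequence, chr11:125637449-125637544, is shown in capitals because the junction removes all of it, followed by the 40 bases around each junction, with the last 20 bases of exon 7 in lower case and the first 20 bases of the exon joined to it in capitals.
CHEK1 skipped exon 8: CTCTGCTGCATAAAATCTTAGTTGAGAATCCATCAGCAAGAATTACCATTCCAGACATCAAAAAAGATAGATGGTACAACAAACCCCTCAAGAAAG
CHEK1 junction of exons 7 and 8: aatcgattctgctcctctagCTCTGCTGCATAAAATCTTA
CHEK1 junction of exons 7 and 9: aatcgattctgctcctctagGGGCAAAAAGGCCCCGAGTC

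The skipping junction was used more in WT than in K700E at day 4. It took 140 of 766 reads from its donor in WT replicate 1, which is 18.3% (95% Wilson interval 15.7% to 21.2%), and 161 of 994 in WT replicate 2, which is 16.2% (14.03% to 18.6%). In K700E it took 63 of 1150 reads, 5.48% (4.31% to 6.95%), and 21 of 949 reads, 2.21% (1.45% to 3.36%). The means were 17.2% ± 1.47 (SD, n = 2) in WT and 3.85% ± 2.31 in K700E, so use dropped by 13.4 points (adjusted p 0.0132 by edgeR). The junction of exons 7 and 8, from the same donor, mirrored it, at 81.5% and 83.6% in WT and 94.5% and 97.6% in K700E. In the same fit that junction was not called (unadjusted p 0.364 by edgeR), while limma's diffSplice called both. The event was thus called by edgeR on its rarer junction only. The intervals cover counting error only.

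At day 8 the CHEK1 skipping junction was rare in all 4 libraries, at 2.35% and 0.241% in those labelled WT and 1.83% and 3.76% in those labelled K700E. Every day 8 value lay below both WT day 4 values and below the higher of the K700E day 4 values. This order does not follow the median use of the 22 known targets, which was high in 1 library of each labelled genotype at day 8. The call held with limma's diffSplice (adjusted p 0.00717) and was lost without either WT library or without K700E replicate 2 (adjusted p 0.383, 0.467 and 0.144 by edgeR), and in the model of all 8 libraries. The total level of CHEK1 differed little between the day 4 groups, at 184 and 213 CPM in WT and 206 and 209 CPM in K700E.

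The called CLSPN junction used an unannotated acceptor 15 nt inside exon 15 of the gene's 25 exons. Its intron runs from 35746978 to 35747906 on chromosome 1 (minus strand, hg38), and the annotated intron from the same donor ends at 35746993. The exon lies at 35746766 to 35746992 and is coding. The first 45 bases of the exon (chr1:35746948-35746992, minus strand) are shown because the junction removes the 15 in capitals, which end in AG and are a multiple of 3.
CLSPN start of exon 15: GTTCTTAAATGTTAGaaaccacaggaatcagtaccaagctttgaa

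The CLSPN acceptor was all but unused in WT at day 4. It had 0 of 232 reads in WT replicate 1, which allows a share of up to 1.29%, and 1 of 329 reads, 0.304%, in WT replicate 2. In K700E it had 27 of 339 reads, 7.96% (5.53% to 11.3%), and 17 of 326 reads, 5.21% (3.28% to 8.19%). The means were 0.152% ± 0.215 (SD, n = 2) in WT and 6.59% ± 1.94 in K700E, a rise of 6.44 points (adjusted p 0.036 by edgeR). The junction met the minimum of 5 reads in 2 libraries only through the K700E libraries, where its use was high. Its p-value is therefore not free of that filter. At day 8 it had 0 of 515 reads and 14 of 353 reads, 3.97%, in the libraries labelled WT, and 3 of 361 reads, 0.831%, and 44 of 486 reads, 9.05%, in those labelled K700E. The 2 higher day 8 values, 3.97% and 9.05%, were in the libraries whose known targets had medians of 29.7% and 30.9%. The lower ones, 0% and 0.831%, were in those with medians of 0% and 2.89%. The day 4 values led to the call, so their order beside the known targets is not independent of how the junction was picked. The call was lost with limma's diffSplice (adjusted p 0.321), in the model of all 8 libraries and without either WT library, and without either K700E library the junction had too few reads to be tested.

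**Figure D4:**
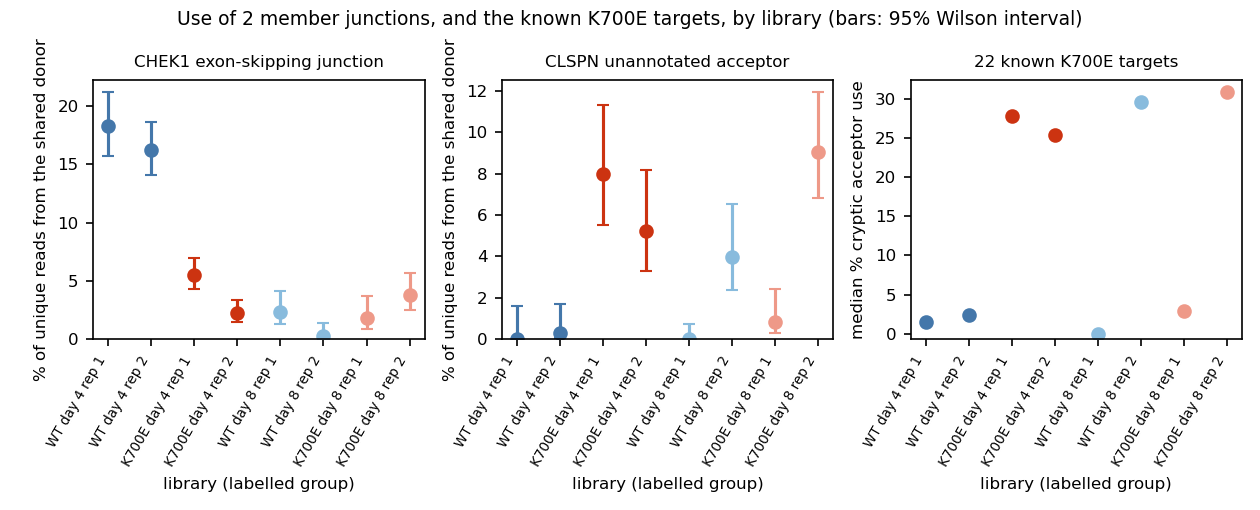
Percentage of unique reads from the shared donor that used the CHEK1 exon-skipping junction (left) and the CLSPN unannotated acceptor (middle) in each library, with 95% Wilson intervals, and the median cryptic acceptor use of 22 known targets (right). CLSPN and the known targets are high in the same 4 libraries, of which the 2 K700E day 4 libraries had part in picking the CLSPN junction. CHEK1 skipping is high in the 2 WT day 4 libraries, at 18.3% and 16.2%.

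Other member acceptors shifted by several points without passing the adjusted threshold. For those that follow, the unadjusted day 4 p by edgeR was 0.00108 and 0.0440 in RAD17, 0.622 in CHEK1, 0.394 in TOPBP1 and 0.109 in MCM3. RAD17, the clamp loader of the checkpoint clamp, has an annotated acceptor at 69371453 on chromosome 5 (hg38) that opens an alternative exon near its 5′ end. It took 5 of 190 and 3 of 232 reads in WT (2.63% and 1.29%) and 68 of 347 and 15 of 151 reads in K700E (19.6% and 9.93%) at day 4, with an adjusted p of 0.0961 by edgeR. At day 8 its use was 3.52% and 12.8% in the libraries labelled WT and 11.2% and 22.7% in those labelled K700E. A second annotated RAD17 acceptor of the same donor, at 69373829, took 27.9% and 15.9% in WT and 7.78% and 11.3% in K700E at day 4. In CHEK1, the usual acceptor at 125627606 took 86.9% and 88.02% in WT and 79.2% and 82.2% in K700E at day 4, and 88.8%, 60.1%, 64.1% and 68.3% in the day 8 libraries, the first 2 of them labelled WT. In ATRIP, the usual acceptor at 48457258 on chromosome 3 took 98.1% of reads in each WT library and 90.2% and 91.7% in K700E at day 4, with an unadjusted p of 0.794 by edgeR. Its day 8 use was 100% and 94.4% under the WT label and 92.1% and 95.1% under the K700E label. In TOPBP1, the acceptor at 133652630 on chromosome 3 took 57.1% and 64.4% in WT and 72.6% and 67.6% in K700E at day 4. Its day 8 use was 61.7% and 73.0% under the WT label and 76.7% and 69.7% under the K700E label. MCM3 has an alternative exon whose acceptor at 52265386 on chromosome 6 took 23.3% and 27.8% of reads in WT and 19.4% and 17.6% in K700E at day 4, and between 5.46% and 7.96% in the 4 day 8 libraries.

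Unannotated acceptors just upstream of an annotated acceptor of the same donor, the class for which K700E is known, were little used in the 36 genes. The lowest p among them was in MCM6, where an acceptor 20 nt upstream of the usual one, at 135856904 on chromosome 2, had 0 of 719 and 0 of 939 reads in WT and 7 of 1155 and 8 of 1125 reads in K700E at day 4. These are shares of 0.606% and 0.711% in K700E, and the counts in WT allow up to 0.417% and 0.319%. At day 8 it had 0 and 2 reads in the libraries labelled WT and 0 and 13 in those labelled K700E. Its adjusted p was 0.18 by edgeR, and its change is below the 5-point minimum. This acceptor, too, met the read minimum at day 4 only through the K700E libraries. In CHEK1, an acceptor 26 nt upstream took 0.229% and 0.343% in WT and 0.75% and 0.56% in K700E at day 4. The others lay 16 nt upstream of an annotated acceptor in TIMELESS and RAD17, 15 nt in CDC6, 18 nt in MCM4 and 3, 14 and 36 nt in CDC45. In 2 of these that annotated acceptor was not the most used: the RAD17 site lies 5 nt downstream of the most used acceptor, and the CDC45 site at 14 nt lies 1488 nt upstream of it. None of them passed by unadjusted p, and their use reached at most 5.19% in any library.

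A second class held unannotated acceptors 10 to 30 nt upstream of the most used acceptor of the same donor, annotated or not. Summed over the 36 genes, it took 176 and 116 reads per 1000000 unique reads in WT, and 268 and 164 in K700E, at day 4. The groups overlapped. Over all genes the same class took, on the same scale, 239 and 176 in WT and 545 and 450 in K700E, which do not overlap. At day 8 the 36 genes had 158 and 387 in the libraries labelled WT and 164 and 272 in those labelled K700E. Unannotated junctions of any kind made up between 0.586% and 0.803% of the reads of the 36 genes, and 0.803% and 0.754% in WT beside 0.721% and 0.602% in K700E at day 4. The lowest share was that of the library labelled WT day 8 replicate 1, where only 4.61% of all unannotated junctions were listed with 1 read.

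Donor use, which compares junctions that share an acceptor, gave 0 calls among 265 member junctions at day 4, while 0.0307% of all 65156 junctions tested were called. By unadjusted p 11 of the 265 passed, 4.15% beside 5.61% of all, and limma's diffSplice called 2 of the 265, beside 81 of all 65156. The same CHEK1 skipping junction had the lowest p there, with an adjusted p of 0.0611 by edgeR.

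Under their labels, the day 8 libraries gave no called gene among 13990 (0.0%; 408 genes, 2.92%, by unadjusted p, and 20 by DESeq2). Of the 36 genes 0 passed by unadjusted p. The log2 change was above 0 in 32 of the 36, with a median of 0.27 beside 0.01 for all genes. The 2 libraries labelled K700E lay above both labelled WT in 21 genes (58.3% beside 19.0% of all genes) and below in 2, RFC1 and TOPBP1 (5.56% beside 13.2%). These groups each hold 1 library with low and 1 with high use of the known cryptic acceptors. Acceptor use at day 8 gave 0 calls among 292 member junctions and 0.0% of all 63775, and by unadjusted p 13 of the 292 passed, 4.45% beside 2.79% of all. Limma's diffSplice also called 0 of all junctions.

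The difference between the labelled genotypes was also compared between the days in 1 model of all 8 libraries. Each labelled day 8 group holds 1 library with low and 1 with high use of the known cryptic acceptors. No gene of 14902 passed (0.0%; 1371 genes, 9.2%, by unadjusted p, and 193 by DESeq2). By unadjusted p the labelled K700E minus WT difference was more positive at day 8 in GINS2, CDT1, PRIM1 and RAD9A (p 0.0383, 0.0155, 0.0462 and 0.0325 by edgeR). In these 4 genes its sign turned, from log2 -0.17, -0.30, -0.29 and -0.28 at day 4 to 0.57, 0.43, 0.35 and 0.56 at day 8. In TOPBP1 the labelled difference went from 0.42 to -0.11 (p 0.0426 by edgeR). These are 11.1% of the 36 genes more positive and 2.78% more negative, beside 848 and 523 of all 14902 genes. Without TMM scaling the median interaction of all genes moved from 0.05 to -0.10 and that of the 36 genes from 0.12 to -0.02, so its sign depends on the scaling.

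Between day 4 and day 8, over both labelled genotypes, 15 of the 36 genes passed the test, a comparison added after the data were seen. Higher at day 8 were MCM5, GINS2, GINS4, PCNA and RAD9A, which is 13.9% of the 36 beside 18.1% of all 14902 genes. Lower were PRIM1, RAD17, RFC1, CHEK1, RFC4, GINS1, CDC45, WEE1, TOPBP1 and RPA1, which is 27.8% beside 18.0%. Without TMM scaling the split was 10 higher and 5 lower, and that of all genes 3383 higher and 1926 lower, and the median of all genes moved from -0.00 to 0.17. All 14 settings of the test that were run called the same 7 genes: MCM5 and RAD9A higher, and PRIM1, RAD17, RFC1, CHEK1 and RFC4 lower. Without WT day 4 replicate 1 or K700E day 4 replicate 1 these 7 were the calls, and without WT day 4 replicate 2, K700E day 4 replicate 2 or the library labelled K700E day 8 replicate 2 there were 9.

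RAD17 had the largest difference between the days. It stood at 122, 131, 138 and 90.5 CPM in the day 4 libraries and at 38.9, 40.9, 61.9 and 37.7 CPM in the day 8 libraries, and every day 8 value lay below every day 4 value (log2 -1.43, SE 0.20, adjusted p 0.00241 by edgeR). PRIM1, which makes the RNA primer of each new strand, fell from 185, 250, 177 and 175 CPM to 76.4, 57.9, 89.1 and 86.9 CPM (log2 -1.35, SE 0.15, adjusted p 0.00119 by edgeR). All 12 introns of its principal transcript were lower in every day 8 library than in any day 4 library. CHEK1 fell from between 184 and 213 CPM to between 98.8 and 119 CPM (log2 -0.91, adjusted p 0.00131 by edgeR), and 11 of its 13 introns did not overlap between the days. RFC1 fell from between 185 and 250 CPM to between 93.8 and 145 CPM (log2 -0.94), and RFC4 from between 188 and 248 CPM to between 113 and 173 CPM (log2 -0.72).

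The genes that rose belong to the helicase, its GINS partner, the sliding clamp and the checkpoint clamp. MCM5 went from 162, 167, 160 and 159 CPM at day 4 to 232, 224, 243 and 350 CPM at day 8 (log2 0.68, SE 0.14, adjusted p 0.00823 by edgeR), the clearest change in the MCM2 to MCM7 ring. MCM6 and MCM7, in the same ring, had log2 differences of -0.13 and -0.12, neither past the test, and 0.05 in both without TMM scaling. RAD9A went from between 12.1 and 15.7 CPM to between 17.4 and 35.5 CPM (log2 0.94), so that the loader of the checkpoint clamp (RAD17) fell while this subunit of the clamp rose. Within GINS, GINS2 and GINS4 rose (log2 0.56 and 0.74) and GINS1 fell (log2 -0.56); the GINS1 and GINS2 groups overlap between the days. ATR itself did not pass, with a log2 difference of 0.11 (SE 0.14).

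**Figure D5:**
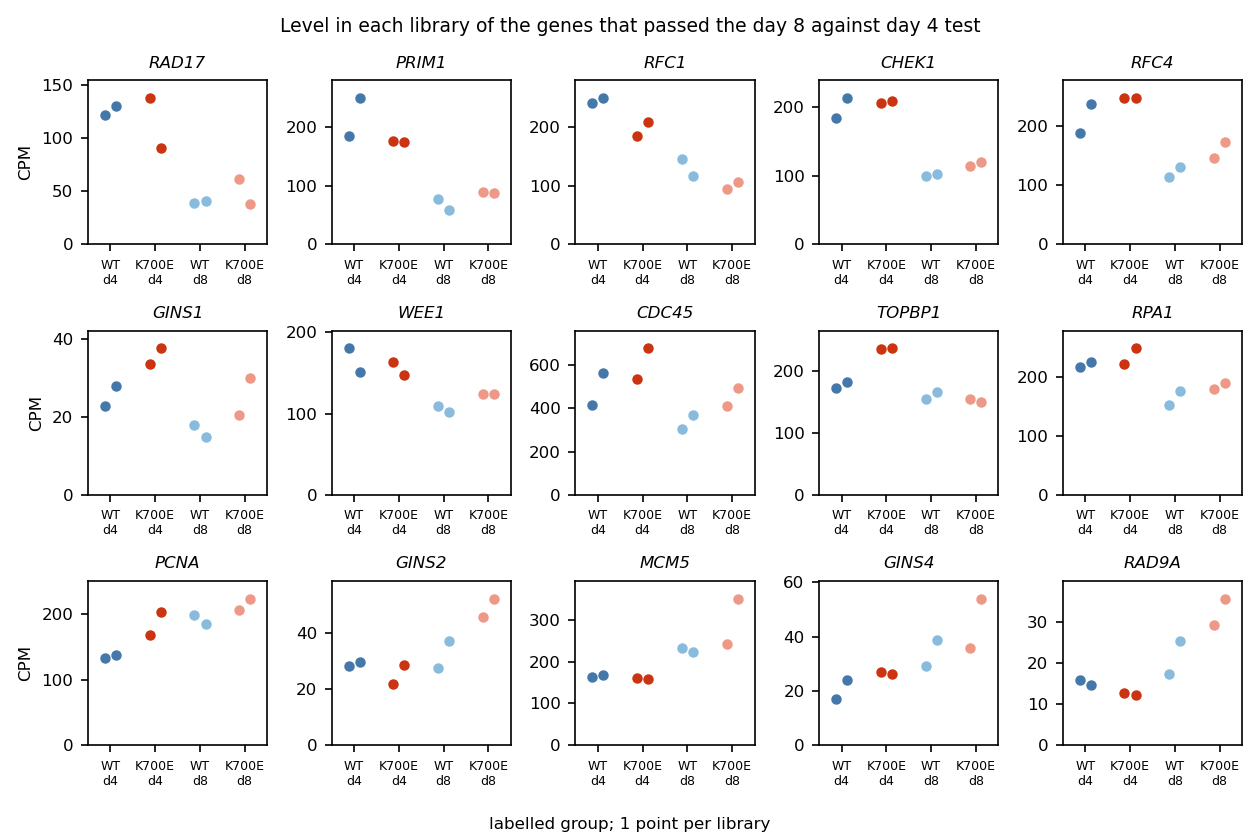
CPM of the 15 genes that passed the day 8 against day 4 test, 1 point per library, ordered from the most lowered (RAD17, log2 -1.43) to the most raised (RAD9A, log2 0.94). In RAD17, PRIM1, RFC1, CHEK1 and RFC4 all 4 day 8 libraries lie below all 4 day 4 libraries.

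Over all genes, 18.1% rose and 18.0% fell between the days. Of 17 origin licensing and firing genes 12 fell and 2 rose, with 5 of the 6 ORC subunits (ORC1 to ORC5) among those that fell; ORC3 had 214, 323, 342 and 366 CPM at day 4 and between 103 and 115 CPM at day 8. Of 19 checkpoint and fork protection genes 13 fell and 1 rose, and CDC25C, the phosphatase that CHEK1 restrains, had the largest drop (log2 -2.16). Of 17 fork polymerase and lagging strand genes 7 fell and 4 rose, while 9 had a log2 difference above 0 and the list's median was 0.12 (0.29 without TMM scaling). Of 10 nucleotide supply genes 3 fell and 0 rose, and of 13 S phase regulators 5 fell and 2 rose, among them E2F1 (log2 1.42). Without TMM scaling the counts that fell and rose were 10 and 2, 10 and 1, 6 and 5, 3 and 1, and 3 and 3 in the same order, beside 1926 and 3383 of all 14902 genes. The 15 erythroid markers included 8 that fell and 1 that rose between the days, and their part in these differences was not tested.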

How the data were processed

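The deposited files list, for each of 8 libraries, the splice junctions found by STAR 2.7.0e on hg38, per the file headers, after trimming with cutadapt, per the submitters' processing notes. The authors' raw counts per junction, 1 column for uniquely mapped and 1 for multi-mapped reads, are not normalized; the other deposited columns (motif code, annotation flag) served as descriptions. Per the file headers, the index was built with GENCODE release 29, and mapping also used release 22. Libraries were strand-specific, per the labels' protocols.

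Unique counts were summed per gene over introns of release 29 that belong to 1 gene; 4.17% of reads fell in introns of several genes and were left out. Multi-mapped reads were at most 2.50% of the junction reads of any of the 36 genes. edgeR 4.0.16 (TMM, filterByExpr, quasi-likelihood test, Benjamini-Hochberg over all genes) compared the labelled groups within each day, between days, and their interaction. Junctions with at least 5 reads in 2 libraries, at a shared site with a mean of 20 reads, were tested with edgeR's diffSpliceDGE. Alternatives used DESeq2 1.42.0, limma 3.58.1, other filters and scaling, multi-mapped reads, a replicate block and each library left out. The steps were tested on simulated data.

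The 36 genes and the other lists were chosen with earlier results of these data known. Genes were named by rule for the 12 lowest p-values at day 4, or for groups apart the same way on both days. The pathway lists gave the 5 largest changes. Junctions named by rule were those called, the 10 largest acceptor changes without overlap and unannotated acceptors 1 to 50 nt upstream. Values by library are left out for POLE4, ZRANB3, E2F2, the upstream RAD9A acceptor and most of these unannotated acceptors. Other genes were chosen after their values were seen. Sequences are from the GENCODE release 29 transcripts. Myeloid and lymphoid marker lists (8 genes each) had 0 genes past the day 4 test, as did the epithelial and erythroid lists.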

Additional observations from a re-analysis of the deposited data

Results flagged for a closer look

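RAD9A has 2 annotated acceptors 32 nt apart, at 67393690 and 67393722 on chromosome 11 (hg38), and the difference between the labelled genotypes had opposite signs on the 2 days in every library. The downstream acceptor took 2.27% and 12.3% of reads in WT and 20.3% and 19.4% in K700E at day 4, from donors with 31 to 73 reads. At day 8 it took 56.8% and 37.0% in the libraries labelled WT and 11.3% and 19.4% in those labelled K700E, a difference of -31.6 points. The upstream acceptor mirrored it, with a day 8 difference of 32.0 points. An unannotated CDC45 acceptor at 19516780 on chromosome 22 took 0.457% and 0.419% in WT and 0.47% and 0.564% in K700E at day 4, and 1.94% and 0.935% in the libraries labelled WT and 0.495% and 0.424% in those labelled K700E at day 8, a difference of -0.98 points. At day 4 the unadjusted p by edgeR was 0.187 for the downstream and 0.676 for the upstream RAD9A acceptor, and 0.776 for the CDC45 acceptor. The difference between the days was not tested for any of the 3 junctions.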

How the results depend on the processing

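Over the 72 results recomputed under each alternative, the 14 member genes named at day 4 kept the sign of their change under every alternative run. The day 4 count of members called was 0 and became 3 with DESeq2 (1640 of all genes) and 1 without the filter (1567 of all genes); 126 genes in all passed with the replicate block and 0 in the model of all 8 libraries. At day 8 DESeq2 called 20 genes in all, and for the interaction DESeq2 called 193 and edgeR without the filter 102; the member median of the interaction was -0.0231, and that of the day comparison 0.0538, without TMM. Leaving out 1 library gave 0 to 2536 genes and 0 to 4 members called at day 4 (the highest without K700E replicate 1, which called ATR, MCM3, PCNA and TIPIN), and member medians from 0.08 to 0.22 at day 4, 0.15 to 0.36 at day 8 and -0.0542 to 0.26 for the interaction. For day 8 against day 4 it gave 2897 to 5980 genes, 7 to 16 members and member medians from -0.16 to 0.00298.

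Member acceptors called at day 4 numbered 1 with the replicate block, which kept CHEK1 and lost CLSPN (adjusted p 0.0799 by edgeR), and 0 in the model of all 8 libraries (0 of all junctions), and 0 to 1 with 1 library left out (8 to 110 of all junctions). For donors, limma's diffSplice called 2 member junctions (81 of all), a minimum of 10 reads 1 (38 of all), the replicate block 8 of all, and leaving out 1 library 0 to 1 (0 to 55 of all). Counting only junctions with at least 5 reads, the unannotated share of member reads at day 4 was 0.484% and 0.539% in WT and 0.502% and 0.417% in K700E. At day 8 that share was 0.577% and 0.711% in the libraries labelled WT and 0.433% and 0.504% in those labelled K700E. Leaving out 1 library turned the sign for 3 little-used acceptors, with day 4 changes from -0.95 to 1.04 points in CDC45 (19516813), including -0.57, from -0.18 to 0.53 in MCM4 and from -0.0400 to 0.47 in CDC6. The cause of these changes was not tested.

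The labels do not say that equal replicate numbers share a culture or day, and the deviations of same-numbered libraries correlated between -0.19 and 0.26 over the 6 pairs of groups, so the numbers were not taken as pairs. With the replicate block 0 members passed at day 4, at day 8 and for the interaction, and 17 passed between the days, beside 5272 of all 14902 genes.

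Each group held 2 libraries, and depth differed between sites: at day 4 a RAD9A donor had 31 to 73 reads and that of CHEK1 exon 7 766 to 1150.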
